A study of Homo sapiens with 4 samples.

Results

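The genes described here are the SR and hnRNP splicing factors of A549 cells. They were taken from the gene symbols of the deposited count table: every symbol made of SRSF and digits, and every symbol that starts with HNRNP and is not a pseudogene, antisense or intronic transcript by its ending. The rule found 35 genes among 40205 symbols, 12 SR protein genes and 23 hnRNP genes, and all 35 passed the filter on low counts. A549 is a human lung adenocarcinoma cell line. All 4 RNA-seq libraries came from A549 cells transfected with small interfering RNA (siRNA) using Lipofectamine iMAX, and all were harvested at 24 h. Control libraries 1 and 2 received negative control siRNA, and libraries Knockdown-670 and Knockdown-732 received siRNA against SBF2-AS1, a long non-coding RNA; the sources do not explain the numbers in these names. There was no untransfected group, and the labels do not state that the libraries of a group were separate cultures, so every p-value below reflects the spread among these 4 libraries, which may be technical.

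SR proteins carry RNA recognition motifs and a tail rich in arginine and serine. They bind exonic enhancers and help the spliceosome to use the neighbouring splice sites, and their activity is set by kinases that phosphorylate the tail. The hnRNP proteins coat nascent transcripts, often repress exons, and also act in RNA export, stability and translation. Many genes of both families regulate their own RNA through exons that lead to nonsense-mediated decay (NMD), and A549 cells, like other dividing cells, express most of them.

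The libraries held 12149767 to 12938143 counts over 22025 to 22419 genes. Counts of SBF2-AS1 were 57 and 79 with control siRNA and 15 and 18 with the siRNA against it, a clear fall (log2 fold change -1.94, SE 0.30, edgeR adjusted p = 3.19e-05). The 6 epithelial markers summed to 6925 and 6962 CPM (counts scaled to each library's TMM-normalized size) in the controls, against 5750 and 5335 CPM with the knockdown. The keratin KRT18 made up most of that difference (2377 and 2472 against 1401 and 1271 CPM), KRT19 was higher with the knockdown (67.6 and 61.6 against 130.2 and 138 CPM), and CDH1 had 103 and 122 against 120.3 and 124 CPM. Alveolar type 2 markers summed to 3.25 to 4.23 CPM in the controls and 9.17 to 9.61 CPM in the knockdown libraries, with SFTPB at 0 and 5 of 7 genes under 1 CPM in all libraries. Of that list LAMP3 went from 1.31 and 1.74 CPM to 7.05 and 7.49 CPM, while NAPSA had 1.86 and 2.34 CPM against 1.87 and 1.89 CPM. Immune markers summed to 14.6 to 17.9 CPM in the controls and 14.8 to 14.9 CPM in the knockdown libraries, with CD3E and HLA-DRA at 0. Endothelial markers summed to 0.425 to 0.756 CPM over all libraries, and fibroblast markers to 10.3 to 10.9 CPM in the controls against 11.1 to 14.1 CPM in the knockdown libraries. The part of cell composition in the results below was not tested.

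The sequences upstream of 4 members are shown because these genes gave the largest fall of all members (HNRNPA2B1), the largest fall among SR genes (SRSF3), a fall with a TATA motif near the start (HNRNPAB) and the one rise (SRSF11). Each is the 250 bases before an annotated start in RefSeq on GRCh38.p14, read 5′ to 3′ on the strand of the gene. Capitals mark matches, on either strand, to CCAAT (the CCAAT box), GGGCGG (the GC box), TATAAA (the TATA box) or CCGGAAGT (a site of ETS factors). They also mark, on either strand, TCTCGCGA (a promoter element), TTTCCCGC (a site of E2F factors) and GCGCATGC (a site of NRF1). No motif of the 7 contains another.
HNRNPA2B1, chr7:26200747-26200996, minus strand: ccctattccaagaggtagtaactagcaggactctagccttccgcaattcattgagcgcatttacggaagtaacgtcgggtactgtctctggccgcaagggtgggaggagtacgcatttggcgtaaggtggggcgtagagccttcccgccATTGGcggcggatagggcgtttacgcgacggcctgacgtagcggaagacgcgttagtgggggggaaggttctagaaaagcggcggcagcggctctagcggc
SRSF3, chr6:36594112-36594361, plus strand: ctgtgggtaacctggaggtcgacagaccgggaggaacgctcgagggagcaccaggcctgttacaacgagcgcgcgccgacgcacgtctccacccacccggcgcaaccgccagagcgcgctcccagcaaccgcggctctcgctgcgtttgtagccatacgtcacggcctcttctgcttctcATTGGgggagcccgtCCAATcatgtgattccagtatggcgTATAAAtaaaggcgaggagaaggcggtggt
HNRNPAB, chr5:178204283-178204532, plus strand: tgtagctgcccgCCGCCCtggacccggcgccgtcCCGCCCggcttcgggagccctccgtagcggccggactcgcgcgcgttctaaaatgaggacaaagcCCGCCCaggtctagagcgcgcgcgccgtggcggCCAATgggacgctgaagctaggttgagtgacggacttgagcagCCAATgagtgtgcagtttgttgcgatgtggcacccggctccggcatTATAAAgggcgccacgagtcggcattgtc
SRSF11, chr1:70205446-70205695, plus strand: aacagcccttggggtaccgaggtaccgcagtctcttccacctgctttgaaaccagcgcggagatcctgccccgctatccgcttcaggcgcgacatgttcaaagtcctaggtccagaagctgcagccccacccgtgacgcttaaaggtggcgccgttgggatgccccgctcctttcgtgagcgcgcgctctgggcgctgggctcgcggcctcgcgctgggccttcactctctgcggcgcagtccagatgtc
The stretch of HNRNPA2B1 held 1 CCAAT box, on the reverse strand, whose first base lies at position -101 from the start. In SRSF3 there were 2 CCAAT boxes, 1 on each strand, and TATAAA began at position -30. HNRNPAB had 2 CCAAT boxes, 3 GC boxes and TATAAA beginning at position -29. The SRSF11 stretch, the first of its 2 starts in the table, held 0 of the 7 motifs. Its other start had TATAAA on the reverse strand at position -206 and, after the start, a match to GGGCGG at position 25.

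RefSeq gave promoters for 33 of the 35 members, 47 in all, each of 300 bases with 50 after the start; SRSF2 and HNRNPA1 had no entry. CCAAT, on either strand, was found in 21 of 33 hnRNP promoters (63.6%) and 3 of 14 SR promoters (21.4%), beside 34.1% of the promoters of the other tested genes and 34.6% of all promoters. GGGCGG was found in 69.7% of hnRNP, 42.9% of SR and 65.3% of other promoters, and TATAAA in 9.09%, 21.4% and 6.29%. TCTCGCGA was in 6.06% of hnRNP and 7.14% of SR promoters against 2.06% of the others, and the shares of TTTCCCGC were 6.06%, 7.14% and 2.34%. CCGGAAGT stood at 3.03%, 14.3% and 7.02%, and GCGCATGC at 3.03%, 14.3% and 4.64%. Some genes have several promoters in the table, a few of which overlap, so these shares are descriptions of letters in a window and carry no test.

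Many of these splicing factor genes had lower RNA levels in the cells that received siRNA against SBF2-AS1. Of the 35 members, 23 fell, 1 rose and 11 did not pass (edgeR's quasi-likelihood test, Benjamini-Hochberg adjusted p under 0.05 over 16120 genes). Among all tested genes, 22.8% fell and 23.5% rose, 46.3% in both directions, while 65.7% of the members fell. In a fit with offsets for transcript GC content and length, 17 members (48.6%) were lower, against 23.9% of all genes in that fit. The members' median log2 fold change, knockdown minus control, was -0.32, where the median over all tested genes was -0.002. Both knockdown libraries lay on one side of both controls for 29 of 35 members, and for 72.6% of all tested genes. The 35 genes together made up 0.602 and 0.601% of the control libraries' counts, and 0.439 and 0.444% of those of Knockdown-670 and Knockdown-732. In bulk RNA a lower share of cells that express a gene and less of its RNA per cell cannot be told apart.

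The change was small for most members. Only HNRNPA2B1 fell by at least 2-fold, and 8 members fell by at least 1.5-fold: HNRNPA2B1, HNRNPDL, SRSF3, HNRNPH3, HNRNPL, HNRNPAB, HNRNPLL and HNRNPA3. The hnRNP genes had a median log2 fold change of -0.42, with 17 of 23 lower and 0 higher. At an unadjusted p under 0.05, 18 were lower and again 0 higher, and DESeq2 and limma-voom also called 0 higher. The SR genes had a median of -0.13, with 6 of 12 lower and 1 higher. That median was -0.23 without control library 1, -0.076 without control library 2 and 0.0048 with the GC content and length offsets, where 2 of 12 were lower. The hnRNP median was -0.35 with the offsets, with 15 of 23 lower. Against the control mean, the hnRNP median was -0.37 in each knockdown library, and the SR medians were -0.16 (Knockdown-670) and -0.09 (Knockdown-732). The difference between the families was not tested.

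**Figure D1:**
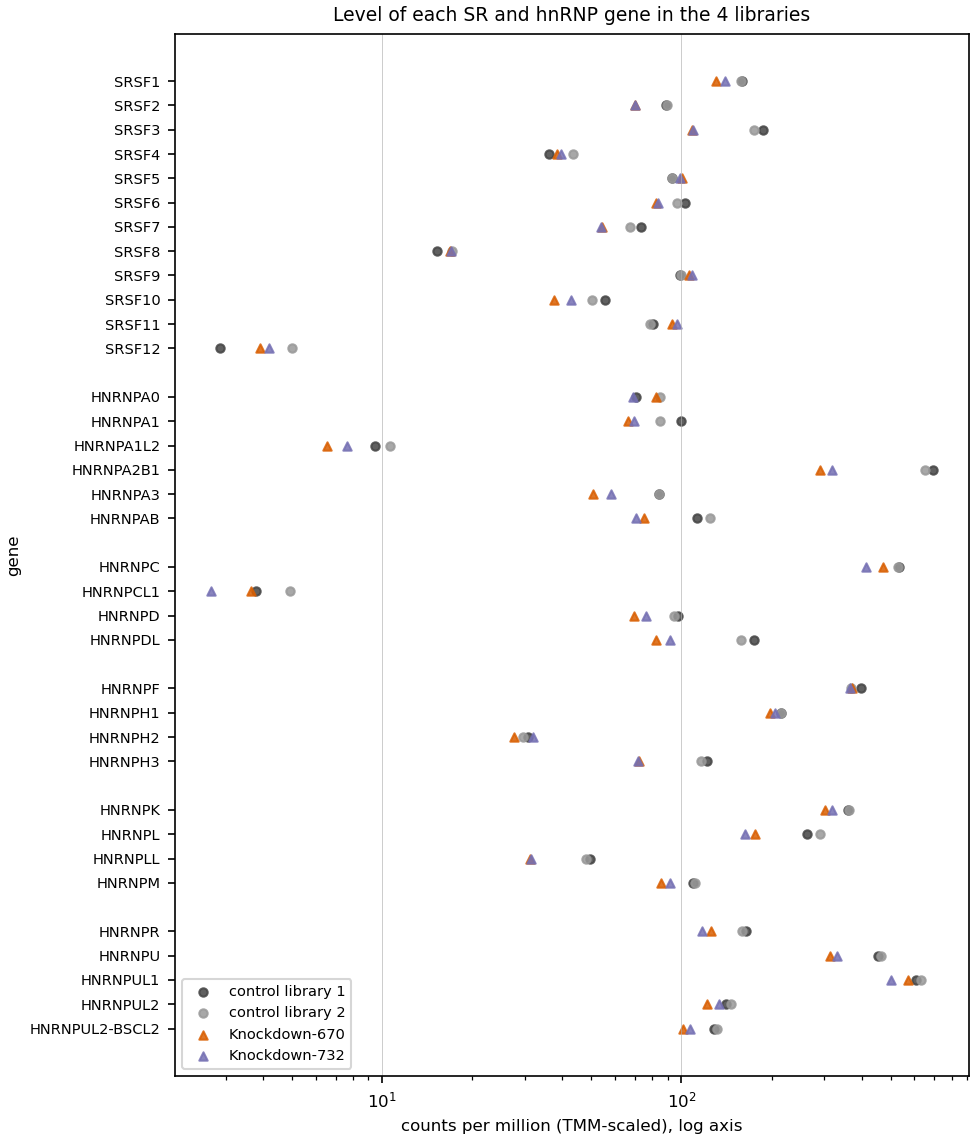
Level of each of the 35 genes in each library, in TMM-scaled CPM on a log axis, with circles for the control libraries and triangles for the knockdown libraries, grouped by family. The triangles lie left of both circles for most genes, with the widest gap at HNRNPA2B1 (691 and 651 CPM in the controls against 289.9 and 318). They lie right of both circles for SRSF5, SRSF9 and SRSF11.

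Among the SR genes, SRSF3, the smallest classical SR protein, which also acts in export of messenger RNA, fell most. Its levels were 188 and 174 CPM in the controls and 109 and 109.6 CPM in Knockdown-670 and Knockdown-732. Both knockdown libraries lay far below both controls and close to each other. The fall was 39.8% (log2 fold change -0.73, SE 0.07, edgeR adjusted p = 1.48e-07). SRSF7, a shuttling relative of SRSF3 with a zinc knuckle, had 73.4 and 67.4 CPM in the controls and 54.1 and 53.9 CPM with the knockdown (log2 fold change -0.38, SE 0.08, edgeR adjusted p = 0.000934). SRSF10, known as a repressor that is activated when dephosphorylated, had 55.7 and 50.3 CPM against 37.5 and 42.9 CPM (log2 fold change -0.40, SE 0.10, edgeR adjusted p = 0.00231). In both genes the 2 groups did not overlap. Neither passed with the GC content and length offsets (SRSF7 at -0.10 and SRSF10 at 0.001, edgeR adjusted p = 0.318 and 0.993).

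SRSF2, which in chromatin-bound form also promotes transcription elongation, was the steadiest within groups. It stood at 88.7 and 89.4 CPM in the controls and at 70.1 CPM in both knockdown libraries, 21.2% lower (log2 fold change -0.34, SE 0.08, edgeR adjusted p = 0.00105). SRSF1, the founding SR protein and a proto-oncogene, had 159 CPM in each control and 130.4 and 139 CPM with the knockdown, 15.1% lower (log2 fold change -0.24, SE 0.07, edgeR adjusted p = 0.00997). SRSF6, an SR protein with a pair of RNA recognition motifs, went from 103 and 96.4 CPM to 82.5 and 83.7 CPM (log2 fold change -0.26, SE 0.07, edgeR adjusted p = 0.00747). The fall of SRSF6 was 16.7%. The calls of SRSF1 and SRSF6 rested on single libraries: SRSF1 did not pass without library Knockdown-670, and SRSF6 did not pass without control library 1. Neither passed with the GC content and length offsets (SRSF1 at 0.01 and SRSF6 at -0.02, edgeR adjusted p = 0.929 and 0.830).

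SRSF11, a nuclear protein with an arginine and serine rich region that acts with other splicing factors, was the one member that rose. Its levels were 80.4 and 78.4 CPM in the controls and 93.1 and 96.9 CPM with the knockdown. Both knockdown libraries were above both controls. The rise was 19.6% (log2 fold change 0.26, SE 0.07, edgeR adjusted p = 0.0083), and it did not pass without library Knockdown-732.

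The 5 SR genes that did not pass were SRSF4, SRSF5, SRSF8, SRSF9 and SRSF12. SRSF5, an SR protein of the same branch as SRSF4 and SRSF6, had 93.1 and 93.0 CPM in the controls and 101 and 98.6 CPM with the knockdown, a log2 fold change of 0.10 with a 95% interval of -0.05 to 0.25. SRSF9 had 98.9 and 99.5 CPM against 106 and 109 CPM, a log2 fold change of 0.11 with an interval of -0.04 to 0.27. In both, the knockdown libraries were the higher ones without overlap, yet the difference did not pass (edgeR adjusted p = 0.284 and 0.206). SRSF4 had 36.1 and 43.4 CPM in the controls, and both knockdown values, 38.4 and 39.6 CPM, lay between them. SRSF8, an intronless copy related to SRSF2, ranged from 15.2 to 17.1 CPM, and SRSF12, a relative of SRSF10, from 2.86 to 4.99 CPM. SRSF12 rested on 37 to 66 counts a library, and its interval of -0.53 to 0.61 on the log2 scale leaves changes of either sign possible.

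Of the A and B hnRNP genes 5 of 6 fell (median log2 fold change -0.56), and with the GC content and length offsets 4 of 6 with a median of -0.33. HNRNPA2B1 encodes hnRNP A2 and B1, core packaging proteins that also read methylated RNA. It had 691 and 651 CPM in the controls, 289.9 CPM in Knockdown-670 and 318 CPM in Knockdown-732. Each knockdown level was below even the lower control by more than the whole spread within either group. The mean fell from 671 ± 28.5 to 304 ± 19.7 CPM (SD, n = 2 each), 54.7% lower (log2 fold change -1.14, SE 0.07, edgeR adjusted p = 3.59e-10).

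HNRNPAB, which binds AU-rich and CArG-like elements, had 112 and 125 CPM in the controls and 74.8 and 70.8 CPM with the knockdown (log2 fold change -0.70, SE 0.08, edgeR adjusted p = 7.64e-07). HNRNPA3, a close relative of A1 and A2, had 83.9 and 84.0 CPM against 50.5 and 58.1 CPM (log2 fold change -0.63, SE 0.08, edgeR adjusted p = 7.75e-06). For both, the groups were well apart with falls of 38.6% and 35.3%. HNRNPA1, the most studied exon silencer of the family, had 99.4 and 84.8 CPM in the controls and 66.2 and 69.5 CPM with the knockdown, 26.3% lower (log2 fold change -0.44, SE 0.09, edgeR adjusted p = 0.00037). HNRNPA1L2, an intronless A1-like gene, went from 9.43 and 10.6 CPM to 6.54 and 7.64 CPM (log2 fold change -0.49, SE 0.17, edgeR adjusted p = 0.0267). In DESeq2, with the offsets, and when control library 2 or Knockdown-670 was left out, HNRNPA1L2 did not pass. HNRNPA0, an intronless gene tied to AU-rich message stability, had 70.4 and 84.7 CPM in the controls and 82.3 and 69.0 CPM with the knockdown, so the groups overlapped (log2 fold change -0.04, 95% interval -0.26 to 0.18).

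Of the C and D genes, 3 of 4 fell (median log2 fold change -0.43), and with the offsets 2 of 4 (median -0.25). HNRNPDL, a D-like protein that binds AU-rich elements, was the member with the next largest fall after HNRNPA2B1. It had 175 and 158 CPM in the controls and 82.5 and 91.9 CPM with the knockdown. Neither knockdown library came near the lower control. The fall was 47.7% (log2 fold change -0.93, SE 0.08, edgeR adjusted p = 2.1e-08). HNRNPD (AUF1), which promotes decay of AU-rich messages, had 97.6 and 94.7 CPM against 69.2 and 76.0 CPM (log2 fold change -0.40, SE 0.08, edgeR adjusted p = 0.000335). HNRNPD and HNRNPDL are neighbours on chromosome 4, on the same strand with 48.06 kb between them in GENCODE on GRCh38.

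HNRNPC, which binds uridine tracts and masks cryptic exons, had 534 and 529 CPM in the controls, 471 CPM in Knockdown-670 and 413 CPM in Knockdown-732. The knockdown libraries were both lower but differed from each other more than the controls did. The fall was 16.8% (log2 fold change -0.27, SE 0.07, edgeR adjusted p = 0.00554), and the call was lost without library Knockdown-732. HNRNPCL1, a scarce C-like gene, had 3.79 and 4.91 CPM in the controls and 3.65 and 2.68 CPM with the knockdown, and did not pass (log2 fold change -0.46, 95% interval -1.02 to 0.09).

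The F and H genes encode proteins that bind runs of guanine, and only HNRNPH3 among the 4 passed. With the GC content and length offsets 2 of 4 passed, HNRNPH3 at -0.41 and HNRNPH1 at -0.22 (edgeR adjusted p = 1.56e-05 and 0.00439). HNRNPH3 had 122 and 116 CPM in the controls and 72.1 and 71.6 CPM with the knockdown, 39.6% lower (log2 fold change -0.73, SE 0.07, edgeR adjusted p = 2.54e-07). Its relatives showed much smaller differences. HNRNPF had 399 and 368 CPM in the controls and 371 and 365 CPM with the knockdown, overlapping groups with a log2 fold change of -0.06 (95% interval -0.20 to 0.08). HNRNPH1 had 215 CPM in each control and 197 and 205 CPM with the knockdown (log2 fold change -0.10, interval -0.24 to 0.04). HNRNPH2, on chromosome X, ranged from 27.6 to 31.8 CPM with both extremes in the knockdown libraries (log2 fold change -0.02, interval -0.26 to 0.21). In the fit without offsets, none of these 3 intervals reaches that of HNRNPH3, -0.88 to -0.57. HNRNPH2 shares 362 exonic bases on the same strand with the symbol RPL36A-HNRNPH2, so their reads may have been split by the counting. RPL36A-HNRNPH2 had 28.2 and 25.5 CPM in the controls and 25.8 and 27.8 CPM with the knockdown.

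All 4 of the K, L and M genes fell, and with the GC content and length offsets 3 of 4 with a median of -0.40. The call lost with the offsets was that of HNRNPK (-0.01, edgeR adjusted p = 0.901). HNRNPL, which binds CA repeats, had 263 and 291 CPM in the controls and 176 and 163 CPM with the knockdown. The groups were far apart, with a fall of 38.7% (log2 fold change -0.71, SE 0.07, edgeR adjusted p = 3.06e-07). HNRNPLL, its relative known for the switch of CD45 isoforms in lymphocytes, had 49.6 and 48.1 CPM against 31.1 and 31.4 CPM (log2 fold change -0.64, SE 0.09, edgeR adjusted p = 1.93e-05). HNRNPM, linked to splicing in epithelial to mesenchymal transition, had 109 and 111 CPM against 85.4 and 91.9 CPM (log2 fold change -0.31, SE 0.07, edgeR adjusted p = 0.00216). HNRNPK, a KH-domain protein that binds poly(C), had 361 and 363 CPM against 301 and 317 CPM, the smallest fall of these 4 at 14.6% (log2 fold change -0.23, SE 0.07, edgeR adjusted p = 0.00892). The call for HNRNPK was also lost without library Knockdown-670.

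Of the R and U genes 4 of 5 fell, by 13.3% to 29.9%. With the GC content and length offsets 4 of 5 were lower, with HNRNPUL2 (-0.39) among them and without HNRNPR (-0.11, edgeR adjusted p = 0.223). HNRNPU, a nuclear matrix protein that binds both DNA and RNA, had 453 and 466 CPM in the controls and 314 and 331 CPM with the knockdown (log2 fold change -0.51, SE 0.07, edgeR adjusted p = 5.25e-06). HNRNPR, a close relative of SYNCRIP, had 164 and 159.6 CPM against 125 and 117 CPM (log2 fold change -0.42, SE 0.07, edgeR adjusted p = 9.72e-05). These falls were 29.9% and 25.1%, with no overlap between groups. HNRNPUL1, a U-like protein that also acts in DNA repair, had 609 and 631 CPM in the controls, 572 CPM in Knockdown-670 and 502 CPM in Knockdown-732 (log2 fold change -0.21, SE 0.07, edgeR adjusted p = 0.0265), and did not pass without control library 2 or without Knockdown-732. HNRNPUL2 had 141 and 146 CPM against 122 and 133 CPM and did not pass (log2 fold change -0.17, edgeR adjusted p = 0.0628), while it passed with library size only and without Knockdown-732. HNRNPUL2-BSCL2, a readthrough transcript of HNRNPUL2 and its neighbour BSCL2, had 128 and 131 CPM against 101 and 107 CPM (log2 fold change -0.32, SE 0.07, edgeR adjusted p = 0.00137). It shares 2391 exonic bases with HNRNPUL2, so reads of these symbols may have been split by the counting, and BSCL2 itself fell by 0.52 on the log2 scale (edgeR adjusted p = 9.29e-05).

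**Figure D2:**
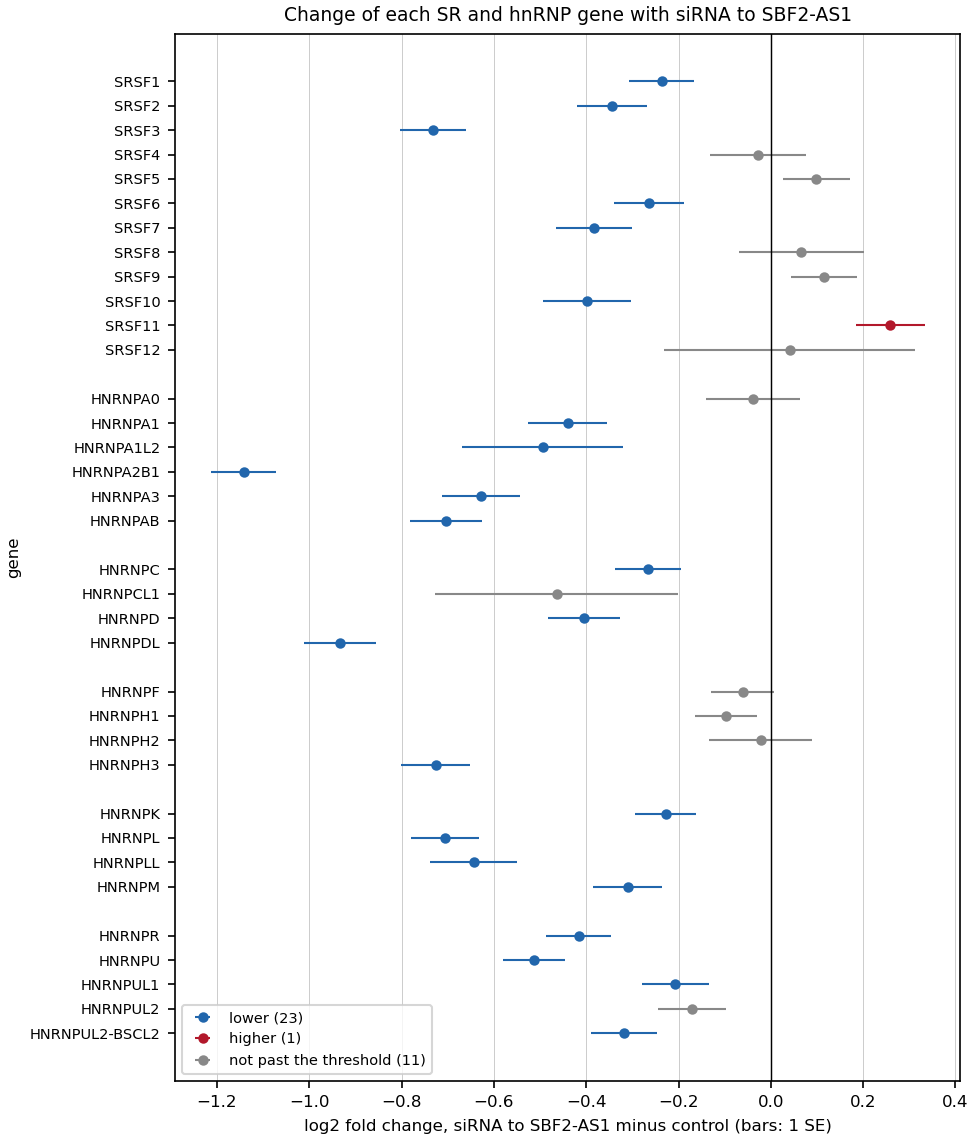
Log2 fold change of each of the 35 genes (siRNA to SBF2-AS1 minus control, points) with its SE (bars), coloured by whether it passed an adjusted p of 0.05 in edgeR. All 23 hnRNP points lie left of 0, from -1.14 for HNRNPA2B1 to -0.02 for HNRNPH2, and SRSF11 is the 1 gene called higher.

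Levels per length of a gene's transcript, in control mean CPM per kb, order the members differently from their changes. The transcript used was the longest protein-coding one, or the longest of any type where none was annotated. HNRNPA2B1 had the highest level of the 35 in the controls, 183 CPM per kb, followed by HNRNPUL1 with 174, HNRNPF with 139, HNRNPK with 123, HNRNPC with 118 and HNRNPL with 112. With the knockdown the same genes stood at 82.9, 151, 133, 105, 98.2 and 68.8 CPM per kb. HNRNPA2B1 thus moved from the top to below HNRNPUL1, HNRNPF, HNRNPK, HNRNPC and SRSF9. SRSF9 was the most abundant SR gene on this scale, with 82.6 CPM per kb in the controls and 89.4 with the knockdown. The lowest levels in the controls were those of SRSF12 (1.09 CPM per kb), HNRNPCL1 (3.93) and SRSF8 (4.01).

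The members' transcripts had a lower median GC content than those of other genes, and GC content moved with the change across all genes. The longest transcript, protein-coding where annotated, was used. Its median GC content was 41.1% for SR and 43.0% for hnRNP genes, against 49.2% for the other tested protein-coding genes. Tested genes were split by GC content into 5 classes of like size, class 1 having the lowest. In class 1 (30.2 to 41.4% GC), 42.0% of the other genes fell and their median log2 fold change was -0.27, and in class 5 (58.4 to 74.5% GC), 9.91% fell and the median was 0.26. Of the members, 11 of 14 in class 1 fell, 7 of 9 in class 2 (30.4% of the other genes there), 0 of 4 in class 3 (22.2%) and 5 of 8 in class 4 (14.7%), and class 5 held no member. The 5 that fell in class 4 were HNRNPAB, HNRNPL, HNRNPM, HNRNPUL1 and HNRNPUL2-BSCL2.

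A fit with offsets for GC content and transcript length in each library called 17 members lower, where 23.9% of all genes in that fit were lower. Of these 17, 15 were also lower without the offsets, and HNRNPH1 (log2 fold change -0.22, edgeR adjusted p = 0.00439) and HNRNPUL2 (-0.39, edgeR adjusted p = 1.12e-05) were added. The calls lost were SRSF1, SRSF6, SRSF7, SRSF10, HNRNPA1L2, HNRNPC, HNRNPK and HNRNPR. SRSF1 stood at 0.01 (edgeR adjusted p = 0.929) and SRSF10 at 0.001 (edgeR adjusted p = 0.993), against -0.24 and -0.40 without the offsets, a change of sign in both. SRSF6 stood at -0.02, SRSF7 at -0.10, HNRNPA1L2 at -0.29, HNRNPC at -0.01, HNRNPK at -0.01 and HNRNPR at -0.11. HNRNPH2 (0.23, edgeR adjusted p = 0.0735) and HNRNPA0 (0.03) also changed sign with the offsets, and passed in neither fit. Of the SR genes SRSF2 (-0.24) and SRSF3 (-0.47) were still lower, and SRSF11 was still higher at 0.57. The largest hnRNP falls persisted in this fit: HNRNPDL at -0.87, HNRNPL at -0.83, HNRNPA2B1 at -0.83 and HNRNPAB at -0.74. Some moved by over 1.5 times in size and still passed, among them HNRNPA3 at -0.35, HNRNPH3 at -0.41, HNRNPLL at -0.36 and HNRNPD at -0.18, which shrank, and HNRNPUL1 at -0.44 and HNRNPUL2-BSCL2 at -0.59, which grew.

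**Figure D3:**
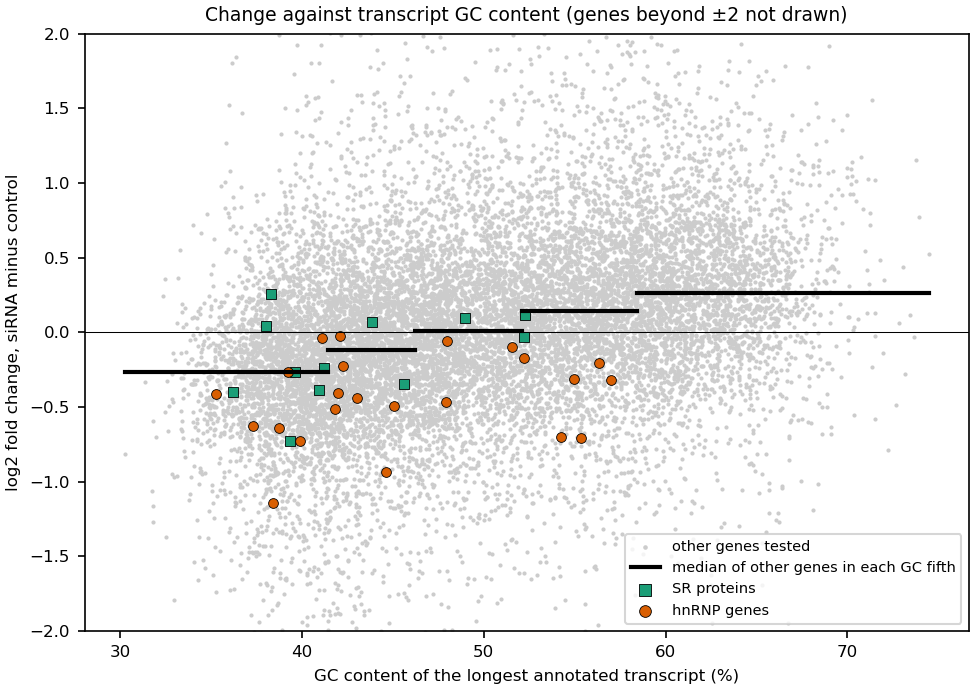
Log2 fold change (siRNA minus control) of each tested gene against the percent GC content of its longest transcript, protein-coding where annotated. SR genes are squares, hnRNP genes larger circles, other genes grey dots, and the median of other genes in each of 5 GC classes is a black line. The line climbs from -0.27 to 0.26, and 23 of the 35 members lie in classes 1 and 2. All 8 members in class 4 lie below the line there, from HNRNPL (-0.71) to SRSF9 (0.11).

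Many hnRNP genes have processed pseudogenes that can take or lend reads. The table listed 119 pseudogene symbols of the members, which the rule set aside; 34 passed the low-count filter, all 34 had a negative log2 fold change, 9 fell (26.5%, beside 22.8% of all tested genes) and 0 rose in edgeR. At an unadjusted p under 0.05 also 0 rose, and a pseudogene count may hold reads of the parent gene. HNRNPA1 was the extreme case, with 68 pseudogene symbols that held 69.7% of the family's counts in the controls and 71.6% in the knockdown. HNRNPA1 itself had counts of 1286, 1122, 780 and 882 in control 1, control 2, Knockdown-670 and Knockdown-732, and its pseudogenes together had 3110, 2436, 2051 and 2139. The pseudogene share was 50.1% and 49.5% for HNRNPA3, 23.1% and 22.5% for HNRNPK, 17.7% and 15.2% for HNRNPL and 17.2% and 18.7% for HNRNPC. With pseudogene counts added to the parent, the same 23 members fell, with HNRNPA1 at -0.35 in place of -0.44 and HNRNPA3 at -0.65 in place of -0.63.

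**Figure D4:**
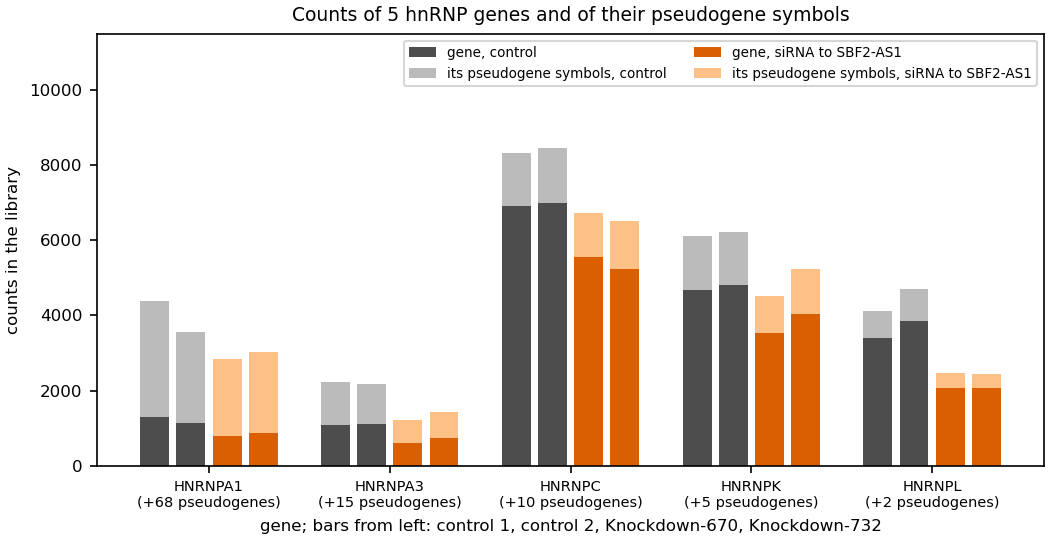
Counts in each library of 5 hnRNP genes (dark part of a bar) and of all their pseudogene symbols (light part), with the bars of a gene in the order control 1, control 2, Knockdown-670 and Knockdown-732. The light part exceeds the dark part for HNRNPA1 in every library, is about equal to it for HNRNPA3, and is the smaller part of the bar for HNRNPC, HNRNPK and HNRNPL.

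Some members share exonic bases with a gene on the opposite strand in GENCODE on GRCh38, and the sources used here do not say if reads were counted by strand. HNRNPA2B1 overlaps CBX3, a heterochromatin protein gene, over 368 bases. CBX3 had 121 and 118 CPM in the controls and 77.7 and 86.3 CPM with the knockdown (log2 fold change -0.54, edgeR adjusted p = 1.29e-05), so it fell alongside HNRNPA2B1. HNRNPUL1 overlaps TGFB1 over 215 bases and HNRNPAB overlaps PHYKPL over 196, and these partners rose (log2 fold change 0.37 and 0.39, edgeR adjusted p = 0.000219 and 0.00947) where the members fell. COX20, MFSD11, GATC and RUFY2, which overlap HNRNPU, SRSF2, SRSF9 and HNRNPH3, did not pass. The part of exchanged reads in these values was not tested.

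Annotated transcript types differed between the families. In GENCODE release 29 all 12 SR genes had at least 1 transcript of the NMD class, as had 14 of 23 hnRNP genes (60.9%) and 42.8% of the other tested protein-coding genes. A retained-intron transcript was annotated for 9 of 12 SR genes, 14 of 23 hnRNP genes and 57.5% of the others. Gene counts do not separate these transcripts from the coding ones, so a change in their balance would not be seen here.

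Other genes of the splicing pathway showed falls in smaller shares than the hnRNP genes, with no test of the difference. Of 7 tested hnRNP proteins under other symbols, 4 fell (57.1%) and 1 rose (14.3%), with a median of -0.28. Among all tested genes 22.8% fell and 23.5% rose. RBMX (hnRNP G) had 190 and 172 CPM in the controls and 112 and 118 CPM with the knockdown (log2 fold change -0.66, edgeR adjusted p = 8.93e-07). SYNCRIP (hnRNP Q) stood at -0.44 and PTBP1 (hnRNP I), which binds pyrimidine tracts, at -0.37 (edgeR adjusted p = 0.000145 and 0.000161). With the offsets the call of SYNCRIP was lost (-0.15, edgeR adjusted p = 0.0767), and PTBP1 was at -0.68. PCBP1 (hnRNP E1) rose, at 0.36 (edgeR adjusted p = 0.000572).

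Of 13 genes for SR protein kinases, phosphatase subunits and nuclear importins, 3 fell (23.1%, near the 22.8% of all tested genes). In the same list 1 rose, and the median was -0.02. TNPO1, which imports hnRNP A1 into the nucleus, stood at -0.49, the phosphatase subunits PPP1CC and PPP1CA at -0.42 and -0.22, and the kinase CLK3 at 0.38 (edgeR adjusted p = 1.09e-05, 8.97e-05, 0.014 and 0.00709). With the offsets TNPO1 stood at -0.31 and PPP1CA at -0.36, while PPP1CC (-0.12) and CLK3 (0.23) did not pass (edgeR adjusted p = 0.156 and 0.0766). CLK3 also did not pass without Knockdown-670, nor PPP1CA without Knockdown-732 (edgeR adjusted p = 0.0659 and 0.119). The kinase SRPK1 had 97.0 and 95.4 CPM in the controls and 99.2 and 97.5 CPM with the knockdown, a log2 fold change of 0.03, and TNPO3, the importin of SR proteins, stood at 0.02; both were picked after their values were seen. Neither passed. Of 24 SR-related proteins (median -0.07) 7 fell (29.2%) and 4 rose (16.7%), beside 22.8% and 23.5% of all tested genes. RSRC2 stood at -0.70, SREK1 at -0.68 and RBM39 at -0.44 on the log2 scale. Those that rose included SCAF1 at 0.53, SRRM1 at 0.47 and ACIN1 at 0.41. The adjusted p in edgeR ran from 3.99e-06 for RSRC2 to 0.000638 for SRRM1. With the GC content and length offsets SCAF1 stood at -0.0031 and did not pass, and SREK1 (-0.42), RBM39 (-0.23) and ACIN1 (0.17) were smaller but passed.

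Of 35 other splicing regulators (median -0.08) 11 fell (31.4%) and 6 rose (17.1%), beside 22.8% and 23.5% of all tested genes. MATR3, a nuclear matrix protein, had 242 CPM in each control and 122 and 141 CPM with the knockdown (log2 fold change -0.88, edgeR adjusted p = 2.88e-08). SFPQ, a paraspeckle protein, stood at -0.43 and RBM24 at -0.55, and RBFOX2, which binds GCAUG motifs, rose by 0.50 and CELF1 by 0.39 on the log2 scale. NOVA2, known from neurons, rose from 1.47 and 2.19 CPM to 6.62 and 4.81 CPM. All of these passed, with edgeR adjusted p of 0.000459 or less.

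The core of the spliceosome had 21 lower (36.2%) and 7 higher (12.1%) genes of 58, with a median of -0.12. Among all tested genes 22.8% were lower and 23.5% higher. SNRPC had 54.6 and 48.2 CPM in the controls and 20.5 and 22.7 CPM with the knockdown, a fall of the same order as that of HNRNPA2B1 (log2 fold change -1.25, edgeR adjusted p = 2.84e-08). SNRNP25, a protein of the minor spliceosome, stood at -1.08 and the helicase DHX15 at -0.53, while SF3A2, SNRPD2 and SF3A1 rose by 0.47, 0.36 and 0.30. With the offsets the call of SF3A1 was lost (0.12, edgeR adjusted p = 0.167), and DHX15 at -0.33 and SF3A2 at 0.18 passed. Of 17 genes of the exon junction complex and NMD (median -0.05), 5 fell (29.4%) and 3 rose (17.6%), beside the same shares of all genes. CASC3 stood at -0.57, MAGOHB at -0.70 and SMG9 at -0.42, and SMG6 rose by 0.39, DHX34 by 0.27 and SMG8 by 0.28 on the log2 scale (edgeR adjusted p of 0.0361 or less). With the offsets SMG6 (0.06), MAGOHB (-0.30) and DHX34 (-0.13) did not pass (edgeR adjusted p = 0.584, 0.114 and 0.193), and SMG9 stood at -0.73. DHX34 and SMG8 also did not pass in DESeq2 (adjusted p = 0.0602 and 0.138), with library size only, or without control library 1 or Knockdown-670, and SMG8 did not without control library 2. Without Knockdown-670 SMG8 stood at 0.14.

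**Figure D5:**
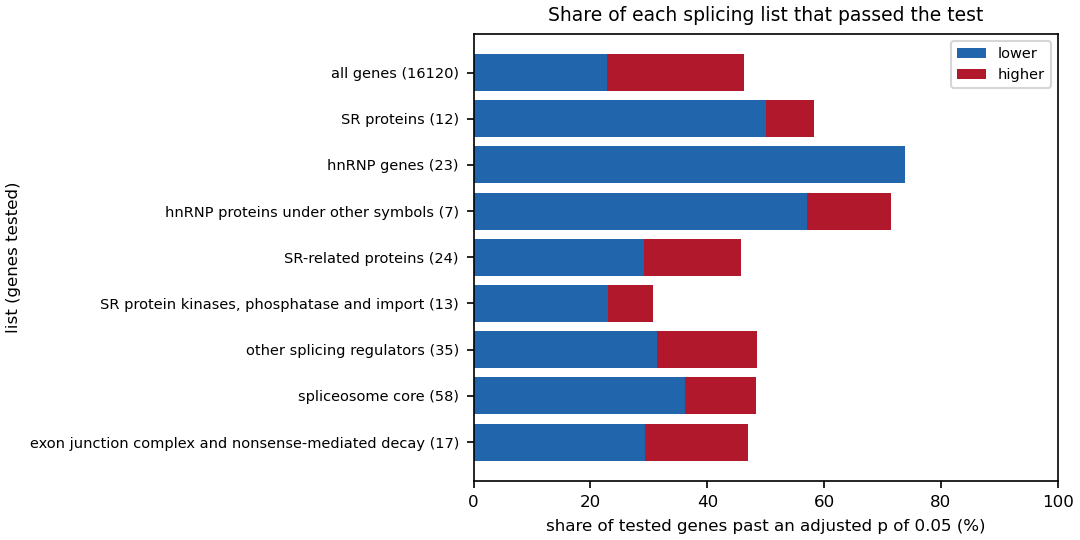
Share in percent of the tested genes of each splicing list that passed an adjusted p of 0.05 in edgeR, split into lower (blue) and higher (red), beside the same for all tested genes; the number tested is in parentheses. The lower part is longest for the hnRNP genes (73.9%), against 22.8% of all genes, and covers 6 of the 12 SR genes.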

How the data were processed

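The authors deposited 1 table of raw read counts per gene symbol, with a column for each of the 4 libraries; 0 columns belonged to no sample and 0 rows without a gene name were used. Per the labels' protocols, total RNA was extracted with Trizol and sequenced on an Ion Proton. The submitters' processing notes name GRCh37; the aligner, counter, annotation and strand use were not given in the sources used here. Libraries were grouped by title. Chi-square per gene was 3.72 between controls, 3.42 between knockdown libraries and 45.0 to 50.1 between groups, above the value of sampling noise, so each library was counted once.

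Counts were tested with edgeR 4.0.16 (R 4.3.3): filterByExpr, TMM, robust glmQLFit and glmQLFTest, Benjamini-Hochberg adjustment over 16120 genes at 0.05. The coefficient of biological variation was 6.64%. CPM values are TMM-scaled, SE is the log2 fold change over the root of F, and intervals are 95%. The fit was tested on simulated data. GENCODE release 29 on GRCh38 was joined by symbol: 28573 directly, 1242 through a synonym, 10390 not. GC content was known for 91.1% of tested genes and 35 of 35 members. All members were named, with SBF2-AS1 and, from each of 6 other splicing lists, up to 3 called genes of smallest p in each direction; SRPK1, TNPO3 and genes whose exons overlap a member were added after their values were seen. The members and lists were chosen with earlier results of these data known. The alternatives were edgeR with DESeq2-style (RLE) or upper-quartile scaling or library size only, no filter, DESeq2 1.42.0, limma-voom (limma 3.58.1), each library left out, offsets for GC content and length (loess, span 0.5), and, added after seeing the data, pseudogene counts added to the parent gene.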

Additional observations from a re-analysis of the deposited data

How the results depend on the processing

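Over 12 alternatives, 14 of the 24 called members passed in every one and 9 of the 11 others passed in none. Of 420 member values, 398 kept their call, a count that ignores the sign of members that did not pass. Among those, SRSF4, SRSF8, SRSF12, HNRNPA0 and HNRNPH2 passed in none and took both signs. The lower calls numbered 24 with library size only, 22 in DESeq2, 17 with GC content and length offsets, and 20 to 22 with 1 library left out. The offsets fit turned the sign of SRSF1 (0.0086), SRSF10 (0.0010), SCAF1 (-0.0031) and DHX34 (-0.13). It also turned that of HNRNPA0 (0.034) and HNRNPH2 (0.23), which passed in neither fit. It left 2 SR genes lower, with an SR median of 0.0048 and an hnRNP median of -0.35. Library size only gave medians of -0.20 and -0.48. Leaving out 1 library gave -0.23 to -0.076 for SR and -0.41 to -0.38 for hnRNP genes, and 0 to 1 SR genes higher. The offsets gave 3 higher genes among SR kinases, phosphatase and import (0 to 1 with a library left out) and 7 among SR-related proteins. Higher spliceosome genes numbered 4 with library size only, 4 in DESeq2 and 4 to 5 with a library left out. Higher exon junction complex and NMD genes numbered 1 with library size only, 1 in DESeq2, 1 with the offsets and 1 to 3 with a library left out. Over all genes, 3785 rose and 3678 fell, but 3243 and 4265 with library size only, 3218 and 3510 with the offsets, and 2721 and 2579 in DESeq2. With 1 library left out, the lone library of its group is assumed to vary like the other group. No paired analysis was possible because the groups share no replicate number. Scarce members (SRSF12, HNRNPCL1) are limited by depth.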
